A study of Homo sapiens with 23 samples.

Results

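Parental EFO-21, an ovarian cancer cell line, was compared with the parental forms of OV-90, Kuramochi and OVSAHO, which the labels give as ovarian cancer cell lines too. The comparison used every library without a resistant label: 3 of EFO-21 were set against the mean of the 3 line means of OV-90 (2 libraries), Kuramochi (3 libraries) and OVSAHO (3 libraries), 11 of the 23 libraries in all. Parental cells carried no engineered allele. The other 12 libraries came from the same 4 lines, 3 each, made resistant by long-term culture in rising concentrations of prexasertib, an inhibitor of the checkpoint kinase CHEK1, and served as a second set of the same lines. Each line descends from a single tumour, so a property of the line and a property of its tumour type cannot be told apart.

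High-grade serous ovarian carcinoma is thought to arise mostly from secretory epithelium of the fallopian tube, a Mullerian tissue marked by the transcription factors PAX8 and SOX17. Carcinoma cells can also secrete chemokines under the control of NF-κB, and the interferon response, with its sensors of cytosolic DNA and RNA and its antiviral effectors, can be active in them without added interferon. Such programmes are fairly stable within a line and differ widely between lines.

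Expression values were log2 levels per gene after quantile normalization, so a difference of 1 is 2-fold. Read counts and depth are unknown. The lowest values carry little information: a value at or below the 10th percentile of its library, which lay between 1.70 and 1.86 in the parental libraries, is called here the bottom of the range, and a difference against such values is not a measured fold. The median gene had a mean level of 5.80. Libraries of a line correlated across genes at 0.986 to 0.987 in EFO-21, 0.981 to 0.982 in OVSAHO, 0.971 to 0.978 in Kuramochi and 0.952 in OV-90, against 0.641 to 0.808 between lines. The 2 OV-90 libraries stood apart most, with a median SD per gene of 0.257 against 0.116 in EFO-21.

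Of 21658 genes, 4286 (19.8%) were higher in EFO-21 than in the mean of the other lines and 4623 (21.3%) were lower, at an adjusted p under 0.05 and at least 2-fold (limma). A difference from a mean of lines can come from a single one of them, so the genes that passed the same test against OV-90, Kuramochi and OVSAHO each were counted as well. There were 1596 such genes higher in EFO-21 (7.37%), 1225 of them protein coding, and 1450 lower (6.69%), 946 of them protein coding. All EFO-21 values lay above every other parental value in 3553 genes and below every other in 3613, so a lack of overlap was common. The median difference over all genes was -0.04. For each gene list below, the counts of members called are to be read beside these shares over all genes. By the correlation of line means across genes, EFO-21 stood at 0.772 to Kuramochi, 0.75 to OVSAHO and 0.68 to OV-90, while Kuramochi and OVSAHO stood at 0.814 to each other.

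The genes that were furthest above all other lines included the ERBB ligand EREG, the chemokine CXCL5, secreted proteins of inflamed epithelium (S100A9, LCN2, MMP7) and the membrane proteins THBD, MALL and PLVAP. EREG (chr4:75230862-75254466, GRCh37, plus strand), which encodes epiregulin, stood at 13.73, 13.62 and 13.64 in the EFO-21 libraries, 0.22 and 0.18 in OV-90, 0.01, 0.01 and 0.03 in Kuramochi, and 0.02, 2.07 and 1.79 in OVSAHO. All EFO-21 values were above every other value, and 7 of the other 8 were at the bottom, giving a difference of 13.16 ± 0.36 (SE; limma, adjusted p = 1.55e-09). CXCL5, a ligand of the neutrophil receptor CXCR2, stood at 12.81, 12.81 and 12.71 against 2.21 and 2.29 in OV-90 and at most 1.46 in Kuramochi and OVSAHO (11.42 ± 0.22, adjusted p = 2.39e-10). S100A9, a subunit of calprotectin, stood at 13.10 to 13.26 against 0.99 to 3.35 elsewhere, and LCN2, which binds siderophores, at 13.27 to 13.47 against 1.69 to 5.09.

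MMP7, a secreted metalloproteinase, was at 13.69, 13.70 and 13.65 in EFO-21, -0.01 and 1.32 in OV-90, 2.76, 3.39 and 3.49 in Kuramochi, and 5.86, 5.56 and 5.69 in OVSAHO, which lay nearest to EFO-21. THBD, the thrombin receptor thrombomodulin, was at 11.54 to 11.76 against 0.01 to 4.53, ADA2, a secreted adenosine deaminase, at 11.27 to 11.40 against 0.01 to 2.45, and KRT27, a hair-root keratin, at 8.94 to 9.01 against 0.01 to 0.22. Further leading genes were LYPD2, MALL and PLVAP, with differences of 9.19, 8.74 and 8.67.

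**Figure D1:**
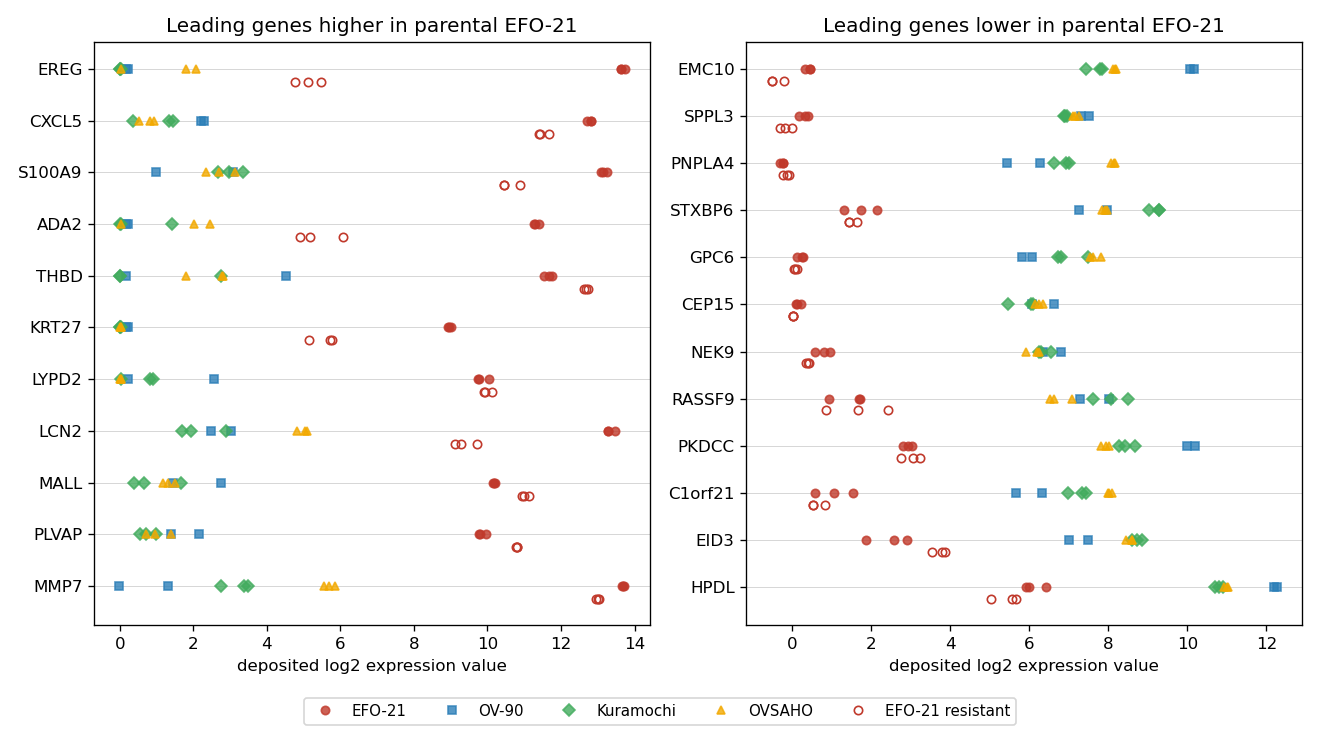
Deposited log2 expression values (x axis) of 11 of the 12 leading higher genes (left) and the 12 leading lower genes (right), one filled symbol per parental library by line, with resistant EFO-21 libraries as open circles. The genes were chosen for groups that do not overlap, and EREG is at 13.62 or more in parental and at 4.76 to 5.46 in resistant EFO-21 libraries.

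Across all genes, 26 lay above 5.80 in all 3 EFO-21 libraries and at the bottom in all 8 others, a count chosen after the values were seen. The same count gave 163 in OV-90 (2 libraries), 8 in Kuramochi and 38 in OVSAHO. Of the 26, 25 had a symbol, and 16 stayed above 5.80 in all resistant EFO-21 libraries. They included GFRA1, the GDNF co-receptor, at 8.43, 8.29 and 8.21 against at most 1.21 elsewhere. TRPM2, a calcium channel gated by ADP-ribose, was at 7.61, 7.64 and 7.86 against at most 1.23, and RXFP1, the relaxin receptor, at 8.38, 8.28 and 8.24 against at most 1.31. CD180, IL2RB and the peptidylarginine deiminases PADI1 and PADI3 were others.

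Many secreted inflammatory mediators were higher in EFO-21. Of 47 measured chemokines, cytokines and their regulators, 27 were higher in EFO-21 and 9 lower, with a median difference of 1.41 against -0.04 over all genes. 15 were higher than in each line (CXCL1, CXCL5, CXCL6, CXCL8, CXCL14, CX3CL1, IL1A, IL1B, IL6, LIF, TNFSF10, CSF3, IL6ST, SOCS1 and BIRC3), 9 of them in the resistant libraries too. The 5 that were lower than in each line were IL32, IL34, LTB, LIFR and RELB, the last a subunit of the non-canonical NF-κB pathway.

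The CXCR2 ligands lie side by side on chromosome 4. CXCL1 was at 12.71, 12.84 and 12.67 in EFO-21, 8.58 and 8.62 in OV-90, 6.87 to 7.18 in Kuramochi and 5.10 to 5.32 in OVSAHO (5.80 ± 0.08, adjusted p = 3.76e-11). CXCL6 was at 11.27, 11.41 and 11.11, at 6.44 and 6.16 in OV-90, and at the bottom in Kuramochi and OVSAHO, at 0.80 or less. CXCL8, the neutrophil attractant interleukin 8, was at 11.93, 11.96 and 11.82 against 3.83 to 9.31. No library of another line reached the EFO-21 values of any of these genes. CXCL5 and CXCL6 are close paralogs, so reads could have been split between them.

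IL1A and IL1B, the interleukin 1 cytokines, stood at 8.52 to 8.59 and 7.46 to 7.61 in EFO-21 against at most 1.64 and 2.82 elsewhere. IL6 stood at 7.42, 7.53 and 7.57 against -0.08 to 4.96. In the opposite direction, RELB stood at 5.86 to 5.88 against 7.64 to 8.23 (-2.02 ± 0.11), and LIFR, the receptor subunit for LIF, at 0.94 to 1.52 against 3.76 to 8.70 (-4.29 ± 0.32). LIF itself and its receptor's partner IL6ST were thus higher than in each line while LIFR was lower.

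The promoters of the CXCR2 ligands are shown because they carry matches to the NF-κB consensus, the element through which inflammatory signals act on them. The stretches are from RefSeq (GRCh38.p14), are written along the transcribed strand, and have the matched bases in capitals. CXCL1 is at chr4:73869289-73869349 on the plus strand, CXCL5 at chr4:73998733-73998793 on the minus strand and CXCL6 at chr4:73836563-73836623 on the plus strand, and the matches begin 79, 91 and 90 bases before the start sites.
CXCL1: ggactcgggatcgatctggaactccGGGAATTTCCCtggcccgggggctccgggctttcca
CXCL5: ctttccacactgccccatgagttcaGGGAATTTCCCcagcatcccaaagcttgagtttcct
CXCL6: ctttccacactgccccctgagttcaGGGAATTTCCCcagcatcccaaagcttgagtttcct
The CXCL5 and CXCL6 stretches shared 60 of 61 bases. Of all 35116 promoters in the table (250 bases before to 50 after a start), 11.3% held an NF-κB match on either strand, against 37.8% of those of the chemokine and cytokine list. The share was 53.8% (7) of the 13 promoters of genes higher in EFO-21 than in each line and 31.2% (10) of the 32 others. This difference was not tested, and CXCL5 and CXCL6, nearly the same in the stretch shown, are both among the 13. A match is a description of the letters and not a bound site.

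Interferon-stimulated genes were higher as a group: 34 of 59 were higher in EFO-21 and 2 lower, 20 were higher than in each line and none lower, and 17 of the 20 were so in the resistant libraries too. The list's median difference was 1.63, and 1.80, 0.97 and 1.40 against OV-90, Kuramochi and OVSAHO. TRIM22, an antiviral ubiquitin ligase, was at 6.98, 7.04 and 6.97 in EFO-21, 1.26 and 1.08 in OV-90, 1.47 to 1.89 in Kuramochi and 1.65 to 2.26 in OVSAHO (5.42 ± 0.19, adjusted p = 6.72e-09). OASL, an oligoadenylate synthetase relative that enhances RNA sensing, was at 7.28 to 7.32 against 1.33 to 3.23 (5.15 ± 0.25). Both groups of values were well apart.

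IFI16, a nuclear DNA sensor, was at 9.55, 9.52 and 9.45 against 3.28 to 6.96, and IFI27 at 9.06, 8.96 and 9.02 against 5.13 to 7.53. The antiviral GTPase MX1 was at 6.15, 6.09 and 6.15 against 3.78 to 4.84. IRF9 and IRF1, transcription factors of the interferon response, did not pass the threshold in the comparison with the mean: the difference was 0.34 ± 0.10 for IRF9 and -0.62 ± 0.09 for IRF1.

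The promoters of IFI27 and RSAD2 are shown for their matches to the interferon-stimulated response element, searched on both strands as GAAA, any 2 bases and GAAA again, in capitals. They are from RefSeq (GRCh38.p14), at chr14:94110603-94110675 and chr2:6877607-6877666, both on the plus strand. RSAD2 encodes the antiviral enzyme viperin.
IFI27: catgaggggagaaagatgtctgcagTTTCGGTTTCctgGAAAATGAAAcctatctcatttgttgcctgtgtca
RSAD2: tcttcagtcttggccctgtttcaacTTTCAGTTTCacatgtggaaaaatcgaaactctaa
This element was in 3.57% of all promoters and in 57.8% of those of the interferon-stimulated list. The share was 57.1% of the 21 promoters of genes higher in EFO-21 than in each line and 58.1% of the 43 others, so the letters did not separate the members that differed. RSAD2 itself was low in all lines, at 4.63, 4.12 and 4.92 in EFO-21 against 0.18 to 3.27.

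Among 35 genes of nucleic acid sensing and Toll-like receptor signalling, 11 were higher and 2 lower, with a median of 0.62. Higher than in each line were 8 (CGAS, STING1, IFIH1, IFI16, TLR6, IRAK1, IRAK3 and NLRP1), 6 of them in the resistant libraries too. CGAS, which makes the second messenger cGAMP on cytosolic DNA, stood at 8.43, 8.51 and 8.44 in EFO-21, at most 3.02 in OV-90, 3.29 to 3.87 in Kuramochi and 0.86 to 1.95 in OVSAHO (6.09 ± 0.39, adjusted p = 3.21e-07). STING1, the receptor of cGAMP, stood at 9.44, 9.48 and 9.55 against 5.65 to 8.44 (2.51 ± 0.07). IFIH1, the RNA sensor MDA5, stood at 6.83 to 6.96 against 2.72 to 5.15. Both members of the cGAS and STING pair were thus above every other parental library, as were 3553 of all 21658 genes.

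Antigen presentation genes moved with them. Of 43 measured genes of antigen presentation and of checkpoint and stress ligands, 26 were higher and 2 lower, 18 were higher than in each line and none lower, and the median was 1.53. The class II genes HLA-DPA1, HLA-DPB1, HLA-DRA, HLA-DRB5, HLA-DMA and HLA-DMB, the invariant chain CD74 and the class II transactivator CIITA were all among the 18. CD74 was at 9.29, 9.41 and 9.23 in EFO-21, 3.68 and 1.91 in OV-90, 1.96 to 2.51 in Kuramochi and 4.41 to 4.81 in OVSAHO (6.11 ± 0.31, adjusted p = 7.31e-08). CIITA was at 4.68, 5.12 and 5.05 against 0.58 to 2.35 (3.26 ± 0.27). HLA genes are highly variable between people, which can change how reads align, and per-gene values of this family are uncertain.

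Class I was mixed. HLA-C was at 8.90, 9.02 and 9.01 against 4.42 to 7.17, B2M, the shared light chain, at 13.54 to 13.55 against 11.61 to 12.57, and NLRC5, the class I transactivator, was also higher than in each line. HLA-B did not pass (0.95 ± 0.20). IDO1, which degrades tryptophan, was at 8.16, 8.34 and 8.05 against 0.63 to 1.56 (7.11 ± 0.20), while CD274, the ligand PD-L1, was lower than the mean (-1.03 ± 0.24) through Kuramochi (-2.67).

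**Figure D2:**
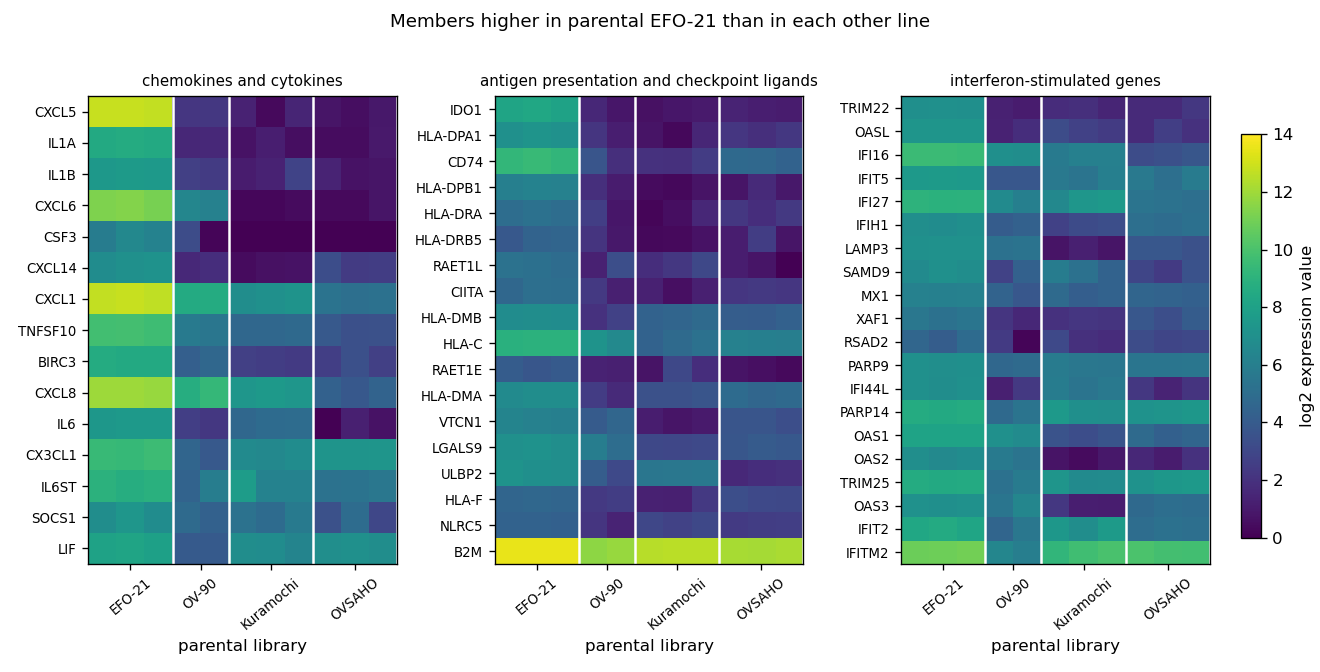
Log2 expression values (colour) of the members of 3 gene lists that were higher in parental EFO-21 than in each other line, with 1 row per gene and 1 column per parental library, grouped by line. The 3 EFO-21 columns at the left of each panel are alike, with CXCL5 at 12.71 to 12.81 and CD74 at 9.23 to 9.41, while OV-90, Kuramochi and OVSAHO differ in which genes are lowest.

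Leukocytes carry many of these genes, so their markers were read beside them. Of 17 measured leukocyte genes, 6 were higher and 5 lower (35.3% and 29.4%, against 19.8% and 21.3% of all genes). The median was -0.73, but 0.60 among genes left after a filter on low values and -0.14 without OV-90 or without Kuramochi. Of the 17, 4 were higher than in each line (23.5%, against 7.37% of all genes), all 4 in the resistant libraries too. Lower than in each line was 1 (5.88%, against 6.69%). The sum of the log2 levels of the 17 was 59.7 to 61.6 in EFO-21 against 32.8 to 95.3 in the other libraries. LAPTM5 was at 7.22, 7.28 and 7.22 against 0.47 to 3.59, and ITGAX and CD68 were also higher than in each line. SPI1, the myeloid master regulator, was lower than in each line, and 4 of the 17 were at the bottom in all EFO-21 libraries. CSF1R was at 0.05 and CD79A at 1.19 on average (n = 3). Their part in the results above was not tested.

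Among 20 ERBB ligands, receptors and pathway genes, 8 were higher and 6 lower, with a median of 0.66. EREG, TGFA, EGF and the feedback inhibitor ERRFI1 were higher than in each line, and ETV4, a transcription factor induced by the pathway, was lower. TGFA, a ligand of EGFR, stood at 5.39, 5.36 and 5.31 in EFO-21, 2.12 and 2.09 in OV-90, and 0.49 to 1.10 in Kuramochi and OVSAHO (4.11 ± 0.19). EGF stood at 5.85 to 6.03 against 0.78 to 3.54 (3.36 ± 0.15). AREG, the neighbour of EREG on chromosome 4, stood at 8.03, 8.05 and 7.93 in EFO-21 but also at 8.01 and 7.82 in OV-90, so that it differed from Kuramochi (5.81) and OVSAHO (5.28) and not detectably from OV-90 (0.08 ± 0.36).

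Of the receptors, EGFR stood at 6.23, 6.13 and 6.28 in EFO-21 against 4.44 to 6.41, 1.12 ± 0.17 above the mean and 0.32 above Kuramochi, and it was no longer called without OV-90 (0.98) or OVSAHO (0.86). ERBB2 was 0.57 ± 0.06 above the mean, short of 2-fold, and ERBB3 (0.45 ± 0.20, adjusted p = 0.0665) and ERBB4 (0.38 ± 0.18, adjusted p = 0.0822) did not pass. The ERK phosphatase DUSP6 (-1.10 ± 0.08) and the inhibitor SPRY2 (-1.30 ± 0.14) were lower than the mean, SPRY4 higher (1.29 ± 0.20). Of the remaining ligands, NRG1 (2.55) was higher, HBEGF (-1.07), NRG2 (-1.72) and NRG3 (-3.58) were lower, and BTC (0.87) and NRG4 (0.69) were not called, nor was the pathway target ETV5 (0.62). The calls of NRG1, HBEGF and NRG2 each rested on 1 line, with 0.76 without OV-90 for NRG1, and -0.42 and -0.56 without Kuramochi for HBEGF and NRG2.

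Other growth factor genes gave 17 higher and 15 lower of 50 measured, 10 higher and 4 lower than in each line, with a median of 0.52. PDGFB was at 8.52, 8.61 and 8.62 against 1.10 to 5.13 (5.57 ± 0.16), and the receptor kinase MET at 9.65, 9.53 and 9.60 against 5.21 to 6.60 (3.74 ± 0.17). TGFBR2, the type II receptor for TGF-β, was at 11.13 to 11.19 against 6.31 to 7.88 (3.94 ± 0.17), and TGFBI, a secreted product of TGF-β signalling, at 7.98 to 8.02 against 1.52 to 4.30. IGF1 (-3.79), NTRK2 (-2.62), EPHA4 (-3.43) and DDR2 (-1.60) were the 4 lower ones.

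The WNT list was split, with 16 higher and 16 lower of 51, 8 in each direction against each line, and a median of -0.23. The 16 were 31.4% in each direction, beside 19.8% and 21.3% of all genes, and the 8 were 15.7%, beside 7.37% and 6.69%. Several WNT ligands were higher: WNT7A stood at 12.12, 11.99 and 12.09 against 1.60 to 9.91 (5.71 ± 0.12), and WNT7B and WNT11 had differences of 4.52 and 4.27. The receptor FZD10 (6.48) and the agonist RSPO3 (4.42) were higher, whereas the stem cell receptor LGR5 (-5.70), FZD4 (-2.28), WNT10B (-3.32), the agonist RSPO1 (-3.44) and the antagonist FRZB (-4.32) were lower. LGR5 stood at 0.93 to 1.07 in EFO-21, the bottom of the range, against 3.83 to 8.32. In the Notch list, 5 were higher and 8 lower of 25 (median 0.47, but -0.38 without OV-90 and -0.20 without OVSAHO), none was higher than in each line, and HEY2 (-4.45), HES6 (-2.28) and LFNG (-1.92) were lower than in each.

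Epithelial and mesenchymal genes did not order the lines simply. In the epithelial adhesion list, 12 were higher and 15 lower of 43 (27.9% and 34.9%, against 19.8% and 21.3% of all genes), with a median of -0.01. CDH1, which encodes E-cadherin, stood at 4.52, 4.83 and 4.59 in EFO-21, up to 9.12 in OV-90, 4.88, 4.58 and 4.39 in Kuramochi, and 8.07 to 8.27 in OVSAHO, so that EFO-21 and Kuramochi overlapped (0.03) and both lay below the others. EPCAM stood at 10.58 to 10.72, below OV-90 (-1.63) and above Kuramochi (4.19) and OVSAHO (1.83). CLDN1, a tight junction claudin, stood at 14.83, 14.66 and 14.66 against 8.65 to 10.47 (5.30 ± 0.19), and DSG2 was also higher than in each line. S100A14, GRHL1, RAB25, SPINT2 and CDS1 were lower than in each, with SPINT2 at 7.30 to 7.46 against 8.84 to 11.51.

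Of the 17 measured keratins of the list, 2 were higher and 9 lower (median -1.57), and KRT5 and KRT4 were lower than in each line. KRT27, given above among the leading higher genes, was not in the list. The median was -0.38 among genes left after a filter on low values and -0.10 in the resistant libraries. Of the 17, 5 were at the bottom in all parental EFO-21 libraries. In the resistant libraries neither KRT5 nor KRT4 was lower than in each line. KRT5 stood at 0.55, 0.07 and 0.23 against 7.17 to 7.23 in OVSAHO and 5.73 to 7.13 in Kuramochi, while the OV-90 libraries disagreed at 6.82 and 1.23. KRT18 did not differ detectably from the mean of the other lines (0.00 ± 0.10, adjusted p = 0.988), and KRT19, at 12.15 to 12.23, lay above Kuramochi and OVSAHO and below OV-90 (-1.03).

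In the mesenchymal list, 27 were higher and 10 lower of 47, 10 higher and 3 lower than in each line, with a median of 1.84, yet -0.51 against Kuramochi alone. ITGB3, the integrin β3 subunit, stood at 11.13, 11.10 and 11.08 against 1.94 to 6.31 (7.38 ± 0.29), and NNMT, nicotinamide N-methyltransferase, at 15.02, 15.13 and 15.14 against 7.14 to 11.39. MMP2 (5.12) was higher too. VIM, which encodes vimentin, stood at 10.25, 10.31 and 10.37, far above OV-90 (4.74 and 3.02) and below Kuramochi and OVSAHO (11.51 to 12.27), and its difference of 1.09 was -1.57 without OV-90. FN1, fibronectin, was lower than in OV-90 and Kuramochi and higher than in OVSAHO (1.96), and ZEB1, at 5.64 to 6.17, was higher than the mean but under 2-fold from Kuramochi (0.54) and OVSAHO (0.80). DCN, LUM and TWIST1 were lower than in each line.

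Fibroblast genes were among the lowest: 2 were higher and 7 lower of 12 (median -1.98), and COL3A1, DCN, LUM and TWIST1 were lower than in each line. Their summed log2 level was 33.7 to 34.1 in EFO-21 against 37.5 to 69.9 elsewhere. The median of the list was -2.91, -1.89 and -0.79 against OV-90, Kuramochi and OVSAHO, and -0.60 in the resistant libraries. Of the 4 genes lower than in each line, 2 were so in the resistant libraries too. Of the 12, 5 were at the bottom in all parental EFO-21 libraries. PDGFRB was the 1 fibroblast gene higher than in each line, at 5.52 to 5.85 against 1.65 to 4.46.

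Collagens gave 13 higher and 8 lower of 31 (41.9% and 25.8%, against 19.8% and 21.3% of all genes, median 0.22). Of these, 7 were higher and 3 lower than in each line, all 10 in the resistant libraries too. The type IV collagens, which form the network of basement membranes, are encoded as head-to-head pairs, and these pairs moved in opposite directions. COL4A1 was at 12.80, 12.79 and 12.79 in EFO-21, 3.35 and 1.93 in OV-90, 10.22 to 10.92 in Kuramochi and 8.15 to 8.48 in OVSAHO (5.66 ± 0.26), and its partner COL4A2 at 12.60, 12.69 and 12.68 (5.23 ± 0.13). COL4A3 (2.53) and COL4A4 (3.58) were also higher than in each line.

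The third pair was at the bottom in EFO-21. COL4A5 (chrX:107683068-107940775, GRCh37) was at 0.39, 0.39 and 0.50 in EFO-21, 5.03 and 5.88 in OV-90, 8.47, 7.84 and 7.82 in Kuramochi and 7.15, 7.31 and 7.48 in OVSAHO (-6.51 ± 0.20, adjusted p = 3.08e-09). COL4A6 (chrX:107398837-107682727), whose annotated start lies 341 bases away on the opposite strand, was at 0.04 to 0.05 against 1.75 to 4.77. Both were at 0.02 in all resistant EFO-21 libraries, and the neighbouring genes PSMD10 (0.40) and ATG4A (0.14) were not lower. Of the 6 nearest protein-coding neighbours of COL4A5, COL4A6 among them, 2 were lower than the mean of the other lines. The 250 bases before the COL4A5 start (RefSeq, GRCh38.p14, chrX:108439588-108439837, plus strand) are shown as the stretch between the pair, with its 8 CpG dinucleotides in capitals.
COL4A5: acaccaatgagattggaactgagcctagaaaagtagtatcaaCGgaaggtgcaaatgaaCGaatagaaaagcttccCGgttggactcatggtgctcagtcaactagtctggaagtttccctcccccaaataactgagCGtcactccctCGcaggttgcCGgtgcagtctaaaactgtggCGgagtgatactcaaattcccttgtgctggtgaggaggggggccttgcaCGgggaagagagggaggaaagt

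A set of genes read out in all other lines was at the bottom in EFO-21. EMC10, a subunit of the complex that inserts membrane proteins into the endoplasmic reticulum, stood at 0.46, 0.33 and 0.45 in EFO-21, 10.08 and 10.17 in OV-90, 7.44, 7.80 and 7.85 in Kuramochi and 8.19, 8.18 and 8.11 in OVSAHO (-8.24 ± 0.10, adjusted p = 1.78e-11). SPPL3, an intramembrane protease of the Golgi, stood at 0.18, 0.40 and 0.33 against 6.88 to 7.51 (-6.87 ± 0.10), and NEK9, a mitotic kinase, at 0.82, 0.60 and 0.97 against 5.93 to 6.81 (-5.56 ± 0.15). The glypican GPC6 (-6.65) and RASSF9 (-6.02) completed the 5 genes that were at the bottom in all EFO-21 libraries and above 5.80 in all 8 others. The same count, chosen after the values were seen, gave 32 in OV-90, 7 in Kuramochi and 21 in OVSAHO. In the resistant EFO-21 libraries 4 of the 5 were again at the bottom in all 3, and RASSF9 stood at 0.86, 2.44 and 1.67.

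The remaining leading lower genes were PNPLA4, STXBP6, CEP15, PKDCC, C1orf21, EID3 and HPDL. PNPLA4, a lipase of the patatin family, stood at -0.29 to -0.23 against 5.43 to 8.16, and STXBP6, a regulator of SNARE assembly, at 1.31 to 2.16 against 7.26 to 9.29. HPDL, a mitochondrial dioxygenase, was the highest of them in EFO-21, at 6.01, 5.93 and 6.42 against 10.70 to 12.26.

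Whether neighbours shared the low level was counted for the 3 protein-coding genes on each side, a choice made after the values were seen. Of 72 neighbours, 26 were lower than the mean of the other lines (21.3% of all genes were). Of the 72, 11 (15.3%) were lower than in each line, against 6.69% of all genes. RASSF9 and HPDL had 3 of these 11 each. EMC10 had 1 such neighbour: GARIN5A, whose start lies 448 bases away on the other strand, stood at 0.10, 0.13 and 0.12 against 3.24 to 7.06 (-5.50 ± 0.21), while JOSD2 on the other side did not differ detectably (0.01). None of the 6 neighbours of SPPL3 was lower, and OASL, 1 of the 6, was 5.15 higher. RASSF9 had 5 lower neighbours of 6.

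The 250 bases before the EMC10 start (RefSeq, GRCh38.p14, chr19:50476257-50476506, plus strand) hold 25 CpG dinucleotides, in capitals. In the GRCh37 annotation EMC10 and GARIN5A overlap, so this stretch lies within GARIN5A and not between the genes.
EMC10: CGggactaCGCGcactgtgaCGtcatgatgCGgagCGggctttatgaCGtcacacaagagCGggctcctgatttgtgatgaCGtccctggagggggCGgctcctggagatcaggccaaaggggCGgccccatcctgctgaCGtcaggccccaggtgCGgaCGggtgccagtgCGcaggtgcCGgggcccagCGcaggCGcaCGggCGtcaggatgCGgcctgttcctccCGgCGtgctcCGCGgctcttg
The median over all promoters was 11 CpG in the same 250 bases and 19 for protein-coding genes of the table. Of the 5 genes at the bottom, SPPL3 had 28, NEK9 18, GPC6 6 and RASSF9 5. DNA methylation and gene dosage were not measured in these libraries.

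The clustered protocadherins, neuronal cell surface adhesion proteins encoded in tandem on chromosome 5, formed the region with the highest difference. All 15 measured PCDHA genes were higher in EFO-21 than in each line, in the parental and in the resistant libraries, with a median difference of 5.17. Their median level was 8.57 in EFO-21, 2.18 in OV-90, 2.03 in Kuramochi and 6.41 in OVSAHO. PCDHA2, for example, was at 9.06 on average in EFO-21 (SD 0.05, n = 3), 2.87 and 2.45 in OV-90, 2.98, 3.27 and 1.74 in Kuramochi and 6.39, 6.73 and 6.61 in OVSAHO. PCDHA genes share their last exons, as PCDHG genes do, so the 15 are not independent and their single values are uncertain.

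The PCDHB genes have no shared exons, and 15 of 16 were higher (median 2.60), 11 of them than in each line, of which 4 in the resistant libraries too. PCDHB10 was at 10.93 or more against 4.42 to 7.24 (4.76 ± 0.13), and PCDHB8 at 11.25 to 11.46 against 7.39 to 9.33. Of 22 PCDHG genes, 7 were higher and 2 higher than in each line, with a median of 0.70 and of -0.76 against Kuramochi. The high values thus stretched over the PCDHA and PCDHB genes and were not seen to the same extent over PCDHG, a difference that was not tested.

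**Figure D3:**
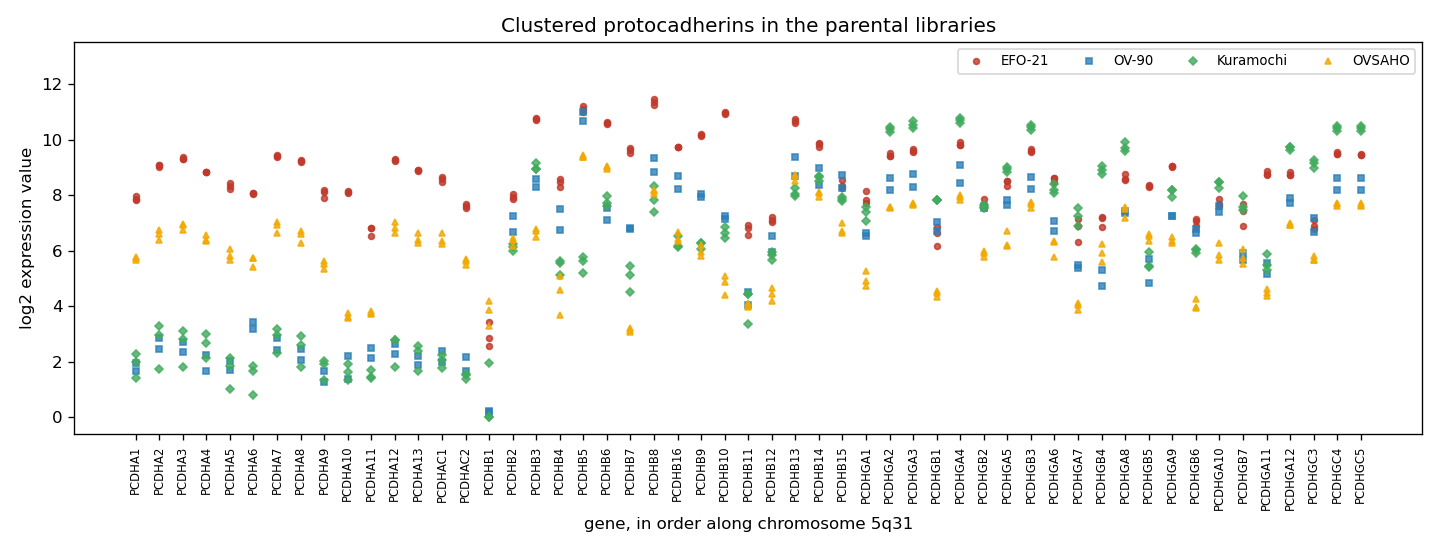
Log2 expression values (y axis) of the clustered protocadherin genes in their order along chromosome 5 (x axis), one symbol per parental library by line. The EFO-21 libraries lie above all other libraries for each of the 15 PCDHA genes and for most PCDHB genes, and below Kuramochi for most PCDHG genes.

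HOX genes, which set position along the body axis and in the Mullerian tract, were mostly higher: 26 of 38 were higher and 9 lower, 13 and 2 against each line, with a median of 2.21. The clusters differed. All 9 measured HOXB genes were higher (median 4.20, 7 than in each line) and so were 10 of 11 HOXA genes (median 2.99, 6 than in each line), whereas 7 of 9 HOXC genes were lower (median -1.22) and 6 of 9 HOXD genes higher (median 2.17, -0.37 against Kuramochi). HOXB8 stood at 9.55, 9.61 and 9.32 in EFO-21, 5.76 and 5.57 in OV-90, and at the bottom, at most 0.95, in Kuramochi and OVSAHO (7.10 ± 0.15). HOXB4 stood at 11.45 to 11.63 against 4.01 to 9.10 (4.20 ± 0.07), and HOXC4 at 1.02, 1.25 and 1.97 against 4.26 to 6.49 (-4.13 ± 0.21).

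Neighbouring genes were also read without lists, as medians over 13798 windows of 40 neighbouring expressed genes, of which the highest 5% lay above 0.78 and the lowest 5% below -0.97. The highest window was that of the protocadherins (chr5:139937853-140575220, APBB3 to PCDHB10, 3.22). The next were chr7:23544399-29606909 with the HOXA genes (1.53, with medians of 0.68, 0.37 and 1.48 against OV-90, Kuramochi and OVSAHO) and chr3:187868994-196559518 from LPP-AS2 to PAK2 (1.47). In the chromosome 3 window, 30 of 40 genes were higher, 18 than in each line and 16 of these in the resistant libraries too, and the medians were 1.44, 1.29 and 1.31 against OV-90, Kuramochi and OVSAHO.

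The lowest window was chr7:74441226-84122040 (RCC1L to SEMA3A, -1.84), where 33 of 40 genes were lower, 21 than in each line and 12 of these in the resistant libraries too. In chr2:235860661-242708231 (SH3BP4 to D2HGDH, -1.79), 24 of 40 were lower than in each line, 19 of them in the resistant libraries too. The third, chr22:19711062-21871822 (-1.77), came mainly from OV-90, with medians of -3.31 against OV-90, -0.46 against Kuramochi and -0.62 against OVSAHO. Coordinates are GRCh37, and copy number was not measured here.

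The Mullerian programme was read from 24 measured markers of Mullerian epithelium and serous carcinoma. Of these, 11 were higher and 10 lower (45.8% and 41.7%, against 19.8% and 21.3% of all genes, median 0.55). The lineage factors were present in EFO-21: PAX8 stood at 8.44, 8.42 and 8.46, against 2.43 and 1.77 in OV-90 and 8.95 to 9.50 in Kuramochi and OVSAHO, and SOX17 at 12.47, 12.54 and 12.39, against 4.17 and 4.58 in OV-90 and 11.86 to 12.41. The higher calls of PAX8 (1.61), SOX17 (2.92), EMX2 (1.51) and MSLN (1.59) came from OV-90, where these genes were low, and without it the differences of PAX8 and SOX17 were -0.75 and 0.33. WT1, a nuclear marker of serous carcinoma, was at the bottom in EFO-21 (0.98, 0.90 and 1.21), with OV-90 at 1.99 and 1.76 and Kuramochi and OVSAHO at 7.89 to 8.30.

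PAX2, a second PAX factor of the Mullerian duct, stood at 7.35, 7.61 and 7.39 in EFO-21 and at 0.25 to 1.46, the bottom, in all 8 others (6.69 ± 0.17). PRAME (3.15) was also higher than in each line, and KLK5 (-5.38) and LHX1 (-2.94) were lower than in each. KLK6 (-1.49), KLK7 (-2.96), KLK8 (-2.10), CRABP2 (-2.39), BCAM (-1.53), WT1 (-5.00) and the steroid receptor ESR1 (-2.89) were lower than the mean, ESR1 and KLK5 at the bottom in EFO-21. MUC16, the CA125 antigen, stood at 5.48 to 5.78, below OVSAHO (-1.20) and above the others, and WFDC2 (-0.16), MECOM (0.11) and FOLR1 (0.98) were not called. Without OV-90, WFDC2 was called lower (-3.06) and FOLR1 higher (1.82). MUC1 (1.54), CDH6 (1.32) and SLC34A2 (3.01) were higher.

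Markers of other cell types varied. The endothelial list was high in EFO-21: 11 of 14 were higher and 1 lower (median 1.61), PECAM1, CDH5, ROBO4 and MMRN1 were higher than in each line and in the resistant libraries too, and the summed log2 level was 73.1 to 75.0 against 22.3 to 60.7. The median was 2.58 against OV-90 and 2.88 against OVSAHO, but 0.66 against Kuramochi. CDH5, VE-cadherin, stood at 9.13, 9.15 and 9.03 in EFO-21, -0.02 and 0.83 in OV-90, 4.45 to 5.04 in Kuramochi and below 0 in OVSAHO. Against that, TEK was at the bottom in EFO-21 (0.43), and VWF and KDR stood at 3.65 and 2.75, lower than in Kuramochi (3.89 and 4.96). A presence of endothelial cells in these cultures was not tested.

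Of 31 neural genes, 9 were higher and 11 lower (29% and 35.5%, against 19.8% and 21.3% of all genes, median -0.05). POU3F3, CHGA, NEFH and CDH19 were higher than in each line and SOX2 (-3.78) lower. Of 29 hepatocyte and gut genes, 6 were higher and 17 lower (median -1.98), which came from OV-90 (-5.21) and was 0.00 without it. TTR, APOA1 and APOC3 were lower than in each line, and SERPINA1 (3.42) and AHSG (2.60) higher. Granulosa genes gave 3 higher and 3 lower of 10 (median 0.01), and mesothelial genes 3 and 3 of 10 (median -0.28).

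Of 49 cancer-testis and germline genes, 32 were lower and 10 higher in EFO-21 (median -2.03). The median was -3.25 against OV-90, -0.02 against Kuramochi and -0.81 against OVSAHO, and it was -0.68 without OV-90. In all, 24 of the 49 were at the bottom in all EFO-21 libraries. Among genes left after a filter on low values, the median was 0.71. DPPA2 (6.07) was high in EFO-21, at 7.57 to 7.61 against at most 4.56, and XAGE2 (2.82) was also higher than in each line, whereas MAGEC2, SSX2, GAGE2A and MAGED1 were lower. The MAGE, GAGE, SSX and XAGE families have near-identical copies that can share reads. Of 34 oncofetal and imprinted genes, 10 were higher and 13 lower (median -0.21). MAGEL2 (5.30) was higher than in each line, and PEG10 (-4.92), KCNQ1OT1 (-4.53), GPC3 (-4.28), NR6A1 (-2.10) and MEST (-2.84) were lower.

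**Figure D4:**
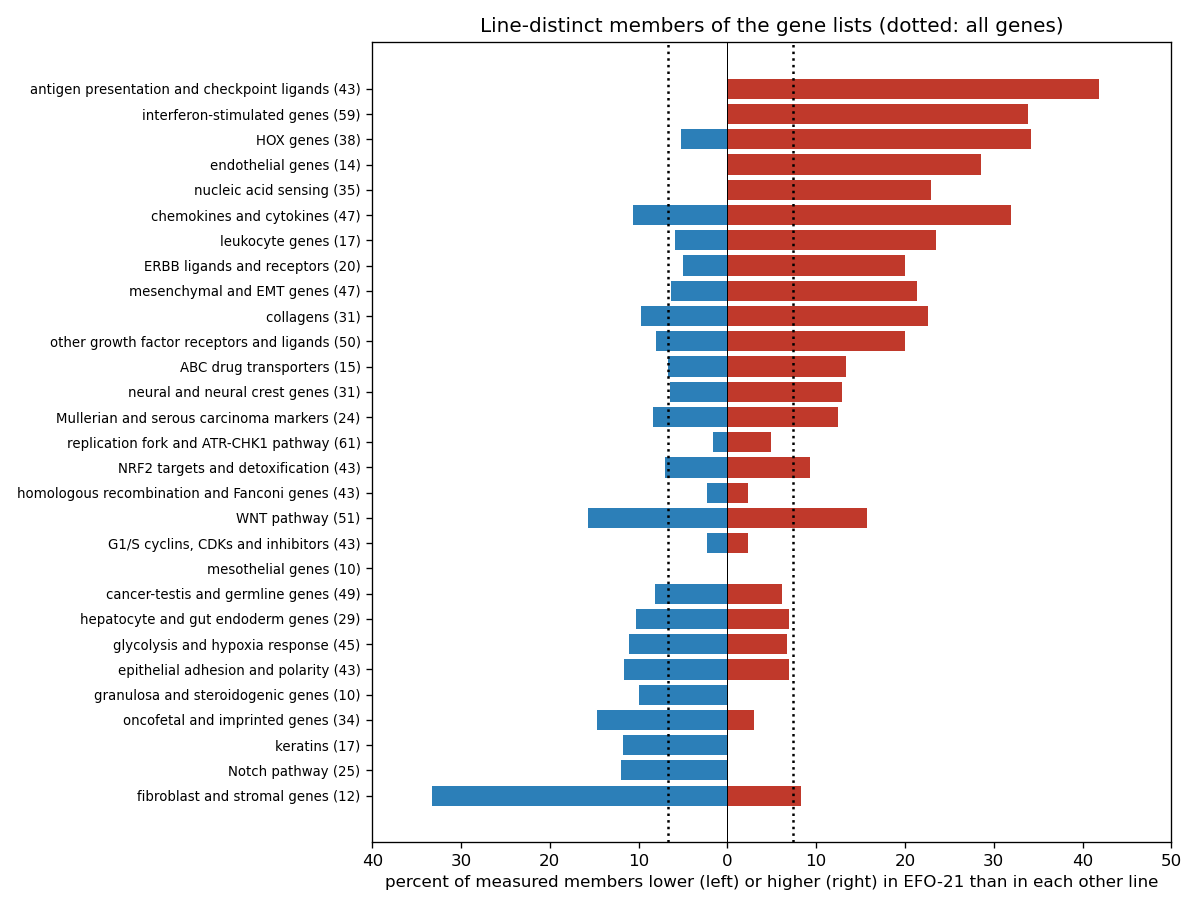
Percent of the measured members of the gene lists (number in brackets) that were lower (left, blue) or higher (right, red) in parental EFO-21 than in each other line, with dotted lines at the values over all genes, 6.69% and 7.37%. Antigen presentation, interferon-stimulated and HOX genes extend furthest to the right, and fibroblast genes furthest to the left.

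Prexasertib acts on the checkpoint kinase CHEK1. In the list of the replication fork and the ATR and CHEK1 pathway, 5 were higher and 5 lower of 61 (8.2% in each direction, against 19.8% and 21.3% of all genes), with a median of 0.00. CHEK1, the drug's target, stood at 7.62, 7.46 and 7.63 in EFO-21, 7.33 and 7.31 in OV-90, 6.65 to 6.81 in Kuramochi and 5.52 to 5.59 in OVSAHO, 1.03 ± 0.07 above the mean but 0.25 above OV-90, and the difference was 0.54 without OVSAHO. SLFN11, which blocks stressed replication forks, stood at 8.11, 8.36 and 8.15 against 3.36 to 6.94 (3.21 ± 0.26), ATM at 7.65 to 7.83 against 4.19 to 7.15 (1.86 ± 0.23), and RAD9B (1.33) was the third gene higher than in each line. RFC2 (-1.61), a clamp loader subunit, was lower than in each.

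In the G1/S list, 7 were higher and 4 lower of 43 (16.3% and 9.3%, against 19.8% and 21.3% of all genes, median -0.02). CCNE1, which encodes cyclin E, stood at 8.04, 7.93 and 8.01 in EFO-21 against 7.74 to 8.73 and did not pass (-0.14 ± 0.06, adjusted p = 0.0561). CCND2 (2.80) was higher and the ubiquitin ligase subunit SKP2 (-1.45) lower than in each line. CDKN2A (-0.47) and RB1 (-0.30) did not pass the threshold.

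Homologous recombination and Fanconi genes gave 3 higher and 4 lower of 43 (6.98% and 9.3%, against 19.8% and 21.3% of all genes, median 0.03). FANCF, an adaptor of the Fanconi core complex, was the 1 gene lower than in each line, at 7.75, 8.14 and 7.78 in EFO-21, 9.87 and 10.22 in OV-90, 10.40 to 10.82 in Kuramochi and 11.09 to 11.50 in OVSAHO (-2.74 ± 0.13, adjusted p = 5.33e-08). It was lower in the resistant libraries too, and GAS2, whose start lies 314 bases away, was at the bottom in EFO-21 but also in Kuramochi and OVSAHO. BRCA1 stood at 4.16 to 4.28 against 4.87 to 5.85 (-1.22 ± 0.15), 0.94 below OV-90, and BRCA2 (0.72 ± 0.22) did not reach 2-fold. RMI2 (1.75) was higher than in each line.

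The death receptors TNFRSF10A (4.37) and FAS (3.40) were higher than in each line, and FDXR (-2.60), TP63 (-1.45) and TIGAR (-1.74) lower.

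ABC transporters gave 6 higher and 2 lower of 15 (median 0.58). ABCC1, a drug efflux pump, stood at 9.03 to 9.05 against 5.72 to 7.95 (2.15 ± 0.18), ABCA13 (3.40) was higher too, and ABCG1 (-3.33) was lower than in each line. NRF2 targets and detoxification genes gave 12 higher and 11 lower of 43 (27.9% and 25.6%, against 19.8% and 21.3% of all genes, median 0.20). MT1E (5.36), ALDH1A3 (2.30), ALDH3A1 (1.98) and GPX3 (2.41) were higher and GSTM1, GSTM3 and GSTM4 lower than in each line. The GSTM genes are near-identical and GSTM1 is often deleted in people, so these values are uncertain.

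In the list of glycolysis and the hypoxia response, 13 were higher and 7 lower of 45 (28.9% and 15.6%, against 19.8% and 21.3% of all genes). The median was 0.39, and -0.14 in the resistant libraries. Of the 45, 3 were higher than in each line (6.67%, against 7.37% of all genes) and 5 lower (11.1%, against 6.69%). In the resistant libraries, 1 of the 3 and 3 of the 5 were so too. SLC16A3, the lactate exporter MCT4, stood at 10.29, 10.40 and 10.44 against 3.07 to 6.01 (5.84 ± 0.17), and ANGPTL4 (4.62) and CA12 (4.85) were higher too. Against these, GAPDH stood at 12.05 to 12.16 against 13.47 to 13.97 (-1.56 ± 0.06), and TPI1 (-1.77), ENO2 (-1.40), PDK3 (-2.11) and ANKRD37 (-1.48) were lower than in each line. GAPDH has many processed pseudogenes, which can take some of its reads.

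The resistant libraries showed how far these differences held in a second set of the same lines. There, 1748 genes (8.07%) were higher and 1497 (6.91%) lower in resistant EFO-21 than in each other resistant line. Of the 1596 genes higher in parental EFO-21, 1011 were so in both sets (63.3% of the parental and 57.8% of the resistant genes), and of the 1450 lower ones 698 (48.1% and 46.6%). 3 genes turned direction. All libraries of a line descend from the same cells, so this is a repeat within lines and not of other EFO-21-like tumours.

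The change of the difference itself was tested over all 23 libraries and was called for 3726 genes (17.2%), and for 93 of the 220 genes named by rule. EREG changed most: resistant EFO-21 stood at 5.11, 5.46 and 4.76, and the difference from the other lines went from 13.16 to 1.17 (change -11.99 ± 0.41, adjusted p = 3.96e-13). Part of the EREG change came from the other lines. Mean EREG levels were 0.20 in parental and 4.07 in resistant OV-90, 0.02 and 3.70 in Kuramochi, and 1.29 and 4.04 in OVSAHO. AREG stood at 1.61, 2.57 and 2.41 in resistant EFO-21, against 7.93 to 8.05 in parental EFO-21. CXCL5 (11.40 to 11.66), MMP7 (12.95 to 13.04), CGAS (8.08 to 8.23) and CD74 (9.94 to 10.05) stayed far above the other lines.

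**Figure D5:**
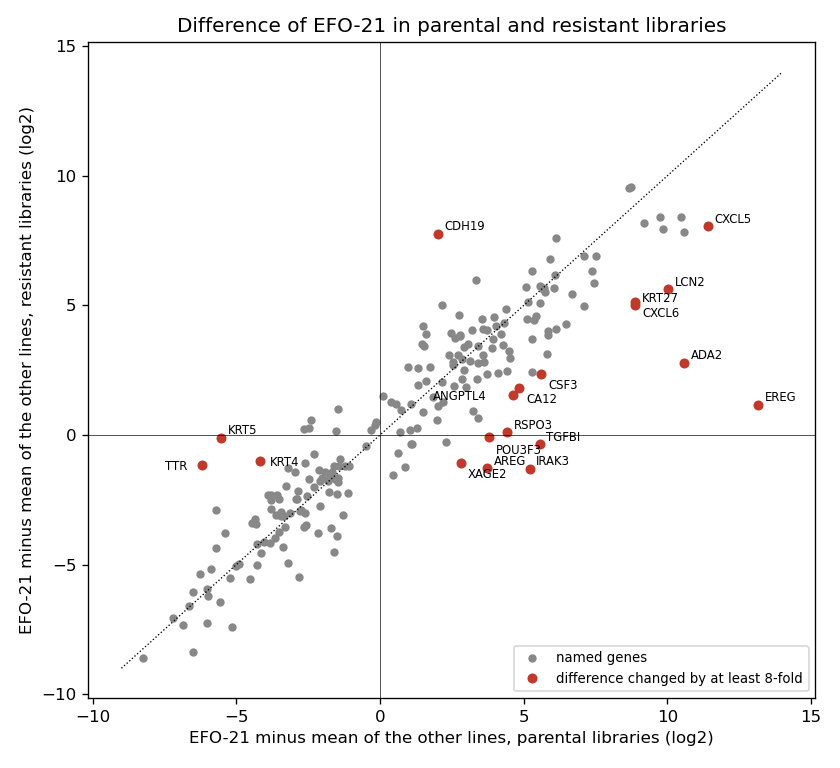
Difference of EFO-21 from the mean of the other lines in the resistant libraries (y axis, log2) against the parental libraries (x axis, log2), one point per gene named by rule, with the dotted line marking equal differences. Genes whose difference changed by at least 8-fold are red and named, among them EREG, from 13.16 to 1.17, and CDH19, from 2.01 to 7.77.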

How the data were processed

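RNA-seq of 23 libraries from 4 ovarian cancer cell lines was read from a single deposited table. The authors prepared stranded poly-A libraries from total RNA, sequenced 150-base pairs, mapped them to the hg19 build of the genome (GRCh37), added up the exon reads of a library's several runs, dropped exons with few reads in most samples, fitted a robust linear model per gene over exons and junctions (16448 genes; the mean of exon values for 5210) and quantile normalized. The deposited values are log2 expression, and hold no counts, so depth is unknown and the number of libraries sets the precision. Quantile normalization forces equal distributions on all libraries, so a shift shared by all genes cannot be seen.

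Of 21658 genes, 20745 were given a symbol by gene ID from a RefSeq table (GRCh38.p14) and 19760 a GRCh37 position from GENCODE v44lift37. Promoter sequences are RefSeq's. Group means were fitted to the 11 parental libraries with limma 3.58.1 (R 4.3.3; eBayes with trend, two-sided, Benjamini-Hochberg over all genes), with the contrast EFO-21 minus the mean of the 3 other line means, and with 3 pairwise contrasts. Calls needed an adjusted p under 0.05 and 2-fold. The 12 resistant libraries were fitted in the same way, and the change of the difference over all 23. The study's methods state no test for this comparison. The labels call the libraries biological replicates without saying what was replicated, so p-values measure the spread between libraries of a line, not between lines. The fits were tested on simulated data.

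Genes were named by rule: the 12 higher and 12 lower genes with the largest difference from the nearest line (symbol known, no overlap, above the median level), up to 5 members per list and direction among those called against each line, all Mullerian and ERBB members, and CDH1, EPCAM, VIM, ZEB1, FN1, CCNE1, CHEK1, CDKN2A, RB1, BRCA1, BRCA2 and SLFN11. Other genes with values, such as CXCL1, MX1 and GARIN5A, were chosen after their values were seen, as were the counts of genes at the bottom, the gene clusters, the neighbours and the promoter motifs. The comparison and its 30 gene lists were chosen with earlier results of these data known. Some genes and 1 of the lists are not reported here. Windows held 40 neighbouring genes. Alternatives were other fits, filters, fold thresholds, scalings and the omission of each library or line.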

Additional observations from a re-analysis of the deposited data

Results flagged for a closer look

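Among the genes named by rule, 19 had a difference of EFO-21 from the other lines that changed by at least 8-fold between the parental and the resistant libraries, by a test of the change itself (limma on all 23 libraries, adjusted over all genes). In 15 the difference moved down and in 4 up. EREG changed by -11.99 ± 0.41 (SE), ADA2 by -7.80 ± 0.76, IRAK3 by -6.51 ± 0.56 and TGFBI by -5.91 ± 0.20. TGFBI was at 7.98 to 8.02 in parental and at a mean of 4.67 in resistant EFO-21, and at 9.14 in resistant Kuramochi, against 1.57 in parental Kuramochi. AREG changed by -4.99 ± 0.41, LCN2 by -4.40, RSPO3 by -4.32, XAGE2 by -3.91, KRT27 by -3.89, POU3F3 by -3.89, CXCL6 by -3.76, CXCL5 by -3.36, CSF3 by -3.26, ANGPTL4 by -3.09 and CA12 by -3.02.

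CDH19, a cadherin of the neural crest, changed by 5.76 ± 0.39, from a mean of 2.77 in parental EFO-21 to 9.10 in resistant EFO-21. KRT5 changed by 5.42 ± 0.95, TTR by 5.06 ± 0.69 and KRT4 by 3.16 ± 0.53. For KRT5 and TTR the change came from the other lines: EFO-21 was at the bottom in both sets, at means of 0.28 and 1.02 for KRT5 and 0.00 and 0.26 for TTR, while TTR in Kuramochi went from 6.29 to 0.00 and in OVSAHO from 5.66 to 0.02. For POU3F3 the level in EFO-21 was 5.19 and 4.38, and resistant Kuramochi stood at 10.44 against 2.44 in parental Kuramochi. Part of the EREG change also came from the other lines, with means of 0.02 to 1.29 in parental and 3.70 to 4.07 in resistant libraries. The other lines moved for further genes, among them ANGPTL4, CXCL5 and XAGE2. ANGPTL4 was at means of 6.34 and 5.81 in parental and resistant EFO-21, and at 1.68 and 8.76 in Kuramochi. CXCL5 was at 12.77 and 11.50 in EFO-21, and rose in OV-90 (2.25 to 4.29), Kuramochi (1.05 to 3.22) and OVSAHO (0.75 to 2.81). XAGE2 was at 4.29 and 1.80 in EFO-21, and at 0.97 and 5.49 in Kuramochi.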

How the results depend on the processing

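No paired analysis was possible because the columns of the table carry no replicate numbers. The 4 counts of differing genes were 4286 higher, 4623 lower, 1596 higher and 1450 lower than in each line, with 1011 and 698 of the last pair also found in the resistant libraries. With a filter that kept genes above the 25th percentile they were 2756, 2563, 848 and 955, and 518 for the genes higher in both sets, with fewer genes tested. With no fold threshold they were 7505, 8093, 2910, 3000, 2027 and 1923, and with 1.5-fold there were 2259 lower than in each line and 1262 lower in both sets. With line means as the units, so that the spread was that between lines, limma called 0 genes higher and 0 lower, with 543 higher and 406 lower at an unadjusted p under 0.05 and a lowest adjusted p of 0.665. Leaving out each library in turn gave 4183 to 4413 higher and 4417 to 4694 lower, 1529 to 1612 higher and 1389 to 1474 lower than in each line, and 976 to 1016 and 673 to 701 in both sets. Without OV-90, PAX8 (-0.75), EMX2 (-1.51), MSLN (-1.21) and VIM (-1.57) turned to lower. Calls that ended when a line was left out were, without OV-90, ZEB1 (0.67) and MUC16 (0.99), without Kuramochi, EPCAM (0.10), CRABP2 (-0.45), BCAM (-0.95), KLK6 (-0.72) and DUSP6 (-0.90), and without OVSAHO, KLK6 (-0.01), KLK8 (-0.88) and SPRY4 (0.81), beside those given with the genes. CHEK1 and HBEGF (-0.99) fell short of 2-fold without 1 EFO-21 library each, and VIM (0.81) without 1 OV-90 library. Calls gained when a line was left out were, without OV-90, FOLR1, NRG4 (2.08), ERBB3 (1.64) and, as lower, WFDC2 (-3.06, but 1.87 without OVSAHO), without Kuramochi, BTC (1.71) and ETV5 (1.02), and without OVSAHO, FOLR1 (2.10) and BTC (1.43). FOLR1 also passed without 1 of 4 single libraries, at up to 1.05, and FOLR1 (1.19) and NRG4 (1.04) against the mean of the other libraries. The median of the Mullerian list turned to -1.36 without OV-90, that of the NRF2 list to -0.29 under the filter and -0.30 without OVSAHO, and that of the WNT list to 0.11 under the filter and 0.30 without Kuramochi. The medians of the interferon-stimulated, chemokine, antigen presentation, HOX, mesenchymal and endothelial lists stayed above 0 and that of the fibroblast list below 0 under the filter, the recentring of libraries and the omission of each line. Depth could not be weighed, as no counts were used here.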

Other observations

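The lower members of the glycolysis list lay partly together. GAPDH, TPI1 and ENO2 are all on the short arm of chromosome 12 within chr12:4758261-7079943 (GRCh37), the window with the fifth-lowest median. The median difference of its 40 genes was -1.55, and -1.68, -1.26 and -1.29 against OV-90, Kuramochi and OVSAHO, with -1.48 in the resistant libraries. The window with the fourth-lowest median (-1.57), chr12:82752307-96067775, holds RASSF9. In it 27 of 40 genes were lower, 16 of them than in each line. The next windows on the higher side were chr16:14927578-21191937 from NOMO1 to LDAF1, which holds ABCC1 (median 1.40, 32 of 40 genes higher), and chr11:122930043-134095398 (1.34, 25 of 40 genes higher). Windows were read without a test, and gene dosage was not measured here.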
